A study of Nannochloropsis oceanica with 18 samples.

Results

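Of the 3803 chromatin regions scored in the marine microalga Nannochloropsis oceanica, 318 (8.36%) were acetylated regions away from the chromosome ends that also carried dimethylated lysine 36 of histone H3 (H3K36me2). A region was taken as a member when its width was at least 1000 bp and under 12000 bp, lay at least 50000 bp from position 0 and from the last region end on its chromosome, had a mean ratio of coverage to local background of at least 2 and under 3.5 for acetylated lysine 27 of histone H3 (H3K27ac) in nitrogen-replete cells, and had a ratio of at least 1.2 for H3K36me2 in the same cells. The limits on width left 2789 regions, those on position 2404, and that on H3K27ac 905, of which the 318 members made up 35.1%. The nitrogen-replete values of H3K27ac and H3K36me2 thus chose the members, and they are given below as a description.

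Histone acetylation and lysine crotonylation (Kcr) are acyl marks that are generally found where chromatin is open and transcribed, most often around the starts of active genes. H3K36me2 is laid down by methyltransferases of the SET domain family and in many eukaryotes is spread over gene bodies rather than at their starts. In oleaginous microalgae, the loss of nitrogen slows growth and directs carbon into storage lipid, with broad changes in gene expression.

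The 3 marks were profiled by chromatin immunoprecipitation and sequencing (ChIP-seq) in strain IMET1. C0 cells were taken at logarithmic phase from a nitrogen-replete f/2 culture, whereas N1 and N2 cells had been pelleted, rinsed in nitrogen-free medium and then kept without nitrogen for 1 and 2 days. The deprived cultures also stood under weaker light than the C0 culture, and in any difference from C0 the effects of nitrogen, of the transfer and of light cannot be told apart. There were 18 libraries in 9 groups, 2 for each mark and condition. A single catalogue number stands in the labels for both the H3K27ac and the H3K36me2 antibody, and other antibodies are given in the study's methods, so which reagent drew down each mark is uncertain.

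For each library and region the deposited files give a coverage value (pileup) and the background expected there (lambda), and their ratio is used throughout. Coverage came in whole multiples of 1 step per library, and the median member held 96 to 283 steps. The files do not tell whether the pileup is an average or a maximum over a region; a maximum would grow with width. Both libraries of H3K36me2 in C0 held identical values, as did those of Kcr in N2, and each such pair was entered once. In the remaining 7 pairs the libraries lay closer together than separate counts of this size should, at 0.666 to 0.773 of chi-square for each degree of freedom, and among the members the SD of the log2 difference within a pair was 0.112 to 0.165. A group is therefore read as 1 sample without an SD. The tests entered its distinct libraries, and p-values compare these libraries, measuring only the spread between them. Most of that spread was drawn from all regions together rather than from the region tested. Pileup and lambda of H3K36me2 in C0 both exceeded those of the deprived libraries (medians over all regions of 44.5 and 37.7, against 22.6 to 26.2 and 20.4 to 24.1), which cancels in the ratio but not in the pileup alone.

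The members were spread over the genome. Their widths, limited by the choice, ran from 1223 to 11993 bp with a median of 6014 bp. All regions, without that limit, ran from 379 to 71931 bp with a median of 3004 bp. Regions in the same width, position and H3K27ac limits had medians of 5040 bp (H3K36me2 of 1 to under 1.2) and 1700.5 bp (under 1). With H3K36me2 of at least 1.2, the median was 2267 bp where H3K27ac was under 2 and 6904 bp where it was at least 3.5. Together the members covered 1985856 bp, 9.07% of the summed width of all regions. Every one of the 30 chromosomes held members, from 2 on chromosome 23 (2.78% of its interior regions of that width) to 23 on chromosome 4 (20.5%). Most stood alone in the order of the regions (242), 70 lay in 35 adjacent pairs, and there were 2 runs of 3 consecutive members, at chromosome 4 (1400344 to 1425759) and chromosome 10 (436457 to 468998). The nearest region on either side, a median of 1361 bp away, had an H3K36me2 ratio of at least 1.2 in C0 in 52.4% of 636 cases, against 47.5% of all regions, and an H3K27ac ratio of at least 2 in 67.8%, against 61.5%. No genes could be assigned to the regions from the sources used here, and these do not state the genome build of the ChIP-seq files, so regions are named by the chromosome and position that the files give.

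In C0 the members' H3K27ac ratio had a median of 2.79 and their H3K36me2 ratio a median of 1.34, with a highest value of 1.80. The highest H3K36me2 ratios stood at chromosome 14 (597008 to 602717) with 1.80, chromosome 7 (461172 to 469390) with 1.78, chromosome 3 (1070769 to 1081394) with 1.75, chromosome 4 (207342 to 218516) with 1.74 and chromosome 15 (402452 to 411425) with 1.73. H3K36me2 enrichment was thus shallow at all members while that of H3K27ac was at least 2 by choice. At the H3K36me2 limit, the members at chromosome 4 (1445567 to 1449433) and chromosome 1 (1503294 to 1507240) had a ratio of 1.202 each, and the regions at chromosome 24 (61122 to 65053) and chromosome 20 (208965 to 216192), with 1.1997 each, were left out. At the lower H3K27ac limit, 2.002 and 2.012 were in and 1.960 for both nearest regions below was out, and at the upper limit 3.495 and 3.493 were in and 3.501 and 3.502 out. A limit of 1.1 on H3K36me2 would have given 428 members and one of 1.3 would have given 205.

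Kcr, which the choice did not use, was present at nearly all members in nitrogen-replete cells. Its median ratio was 2.89 in one C0 library and 2.93 in the other, against 2.55 and 2.58 over all regions, and 306 of the 318 members had a mean ratio of at least 2 (96.2%, against 66.1% of all regions). The lowest member stood at 1.63 and the highest at 4.54. The same share was 96.8% among the 217 interior regions with the same H3K27ac range and an H3K36me2 ratio of 1 to under 1.2, and 91.4% among the 370 such regions with an H3K36me2 ratio under 1. Of 525 interior regions with H3K36me2 of at least 1.2 but H3K27ac under 2, 8.38% reached a Kcr ratio of 2. Among regions with H3K36me2 of at least 1.2, Kcr was thus common where H3K27ac was at least 2 and rare where it was lower. No test was run over regions, which are not replicates.

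**Figure D1:**
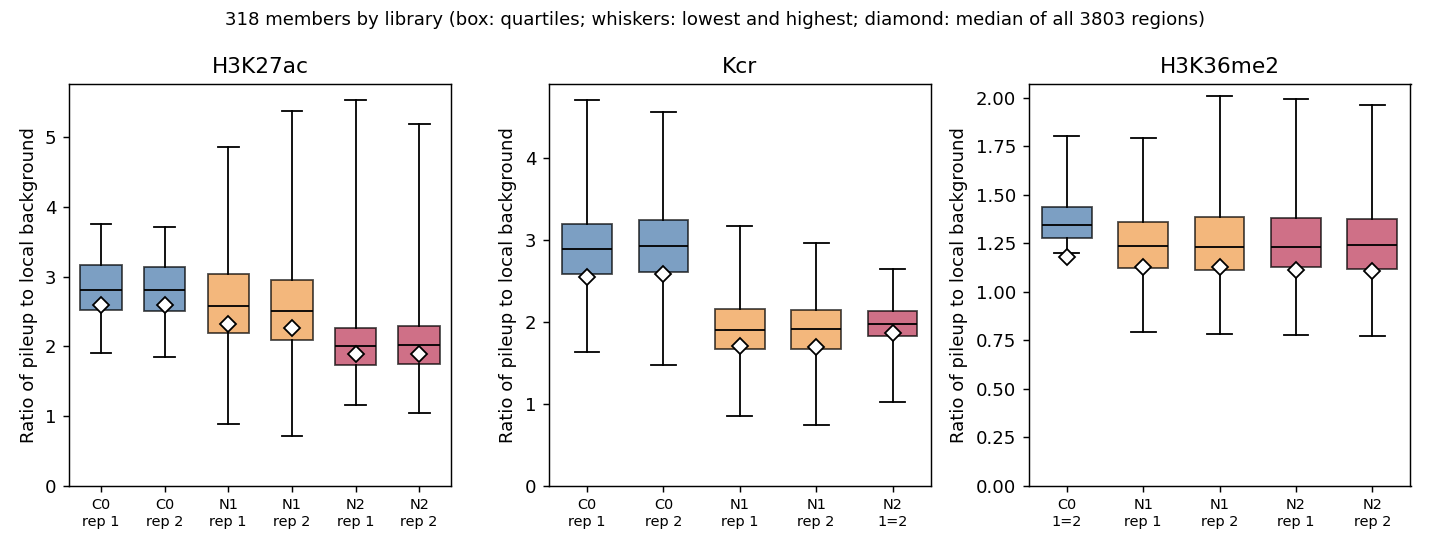
Ratio of pileup to local background for the 318 members in each library of H3K27ac, Kcr and H3K36me2; boxes give the quartiles, whiskers the lowest and highest member, and diamonds the median of all 3803 regions. Libraries with identical values are drawn once (1=2). The Kcr medians of the members fell from 2.89 and 2.93 in C0 to 1.90 and 1.91 in N1 and 1.97 in N2, while their H3K36me2 medians moved from 1.34 to between 1.23 and 1.24.

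Whether crotonylation at these regions changed under nitrogen deprivation was tested with limma on the difference in log2 enrichment, computed as log2(pileup + 0.5) minus log2(lambda + 0.5), with Benjamini-Hochberg adjustment over all 3803 regions and a threshold of 0.05. The choice did not use the Kcr pileup, but the C0 background under it was nearly that of the marks used (log2 lambda correlated at 0.994 with that of H3K27ac and 0.989 with that of H3K36me2 over all regions), and the members' Kcr ratio in C0 correlated with their H3K27ac ratio there. Kcr fell at most members on the first day. The median ratio was 1.90 and 1.91 in the N1 libraries, and the number of members at a ratio of at least 2 dropped from 306 to 125. In N1 this was 39.3% of members, against 33.8% of all regions. By the test, 286 members were lower in N1 than in C0 and 2 were higher, where 64.1% of all regions were called lower and 16.4% higher. In the same H3K27ac range, 86.6% of the interior regions with H3K36me2 of 1 to under 1.2 were called lower. The share was 79.2% of those with H3K36me2 under 1. Where H3K36me2 was at least 1.2 and H3K27ac at least 3.5, it was 94.4%. The loss was thus shared by acetylated regions with less H3K36me2. The median difference of the members was -0.60, with quartiles of -0.80 and -0.41, against -0.43 over all regions. A called fall of more than a log2 unit was found at 24 of the 318 members and at 250 of all 3803 regions. The members' lambda for Kcr moved by 0.08 more than that of all regions in N1, and on the pileup alone the median difference was -0.71, against -0.58 over all regions, with 2 members higher and 301 lower. The fall in part followed the libraries as a whole. After each library was centred on its own median over all regions, which moved the median of all regions from -0.43 to 0.16, the members' median was -0.01 and 66 members were called higher and 70 lower, and with equal medians and spreads these counts were 57 and 77. The direction of the list thus rests on ratios being comparable between libraries.

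At chromosome 5 (801250 to 804981), the largest loss, Kcr ratios of 3.24 and 3.44 in C0 gave way to 1.11 and 1.31 in N1. The log2 difference was -1.44 ± 0.11 (SE), with a limma adjusted p of 1.15e-11. At chromosome 11 (1040463 to 1044563), which held one of the highest Kcr levels among the members in C0, the ratios went from 4.41 and 4.50 to 1.52 and 1.85 (log2 difference -1.40 ± 0.10). Both regions thus lost most of their enrichment over background within a day, with no overlap between the libraries. Chromosome 5 (586460 to 590365) and chromosome 25 (496402 to 499059) followed with log2 differences of -1.33 ± 0.10 and -1.32 ± 0.11. All 4 of these losses held their call after centring, at -0.73 to -0.86, and on the pileup alone.

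The members that rose were at the low end of Kcr in C0. Chromosome 2 (508128 to 515168) went from ratios of 1.63 and 1.82 in C0 to 2.08 and 2.25 in N1 (log2 difference 0.32 ± 0.11, limma adjusted p of 0.0105), and chromosome 20 (635048 to 636797) from 1.79 and 1.47 to 2.15 and 1.86 (0.30 ± 0.12, limma adjusted p of 0.0260). The libraries did not overlap at either, but each call was lost without 1 library: the first without C0 replicate 1 (0.25) or N1 replicate 2 (0.27), and the second without C0 replicate 2 (0.16) or N1 replicate 1 (0.19). Relative to the centred libraries these gains were 0.91 and 0.89.

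**Figure D2:**
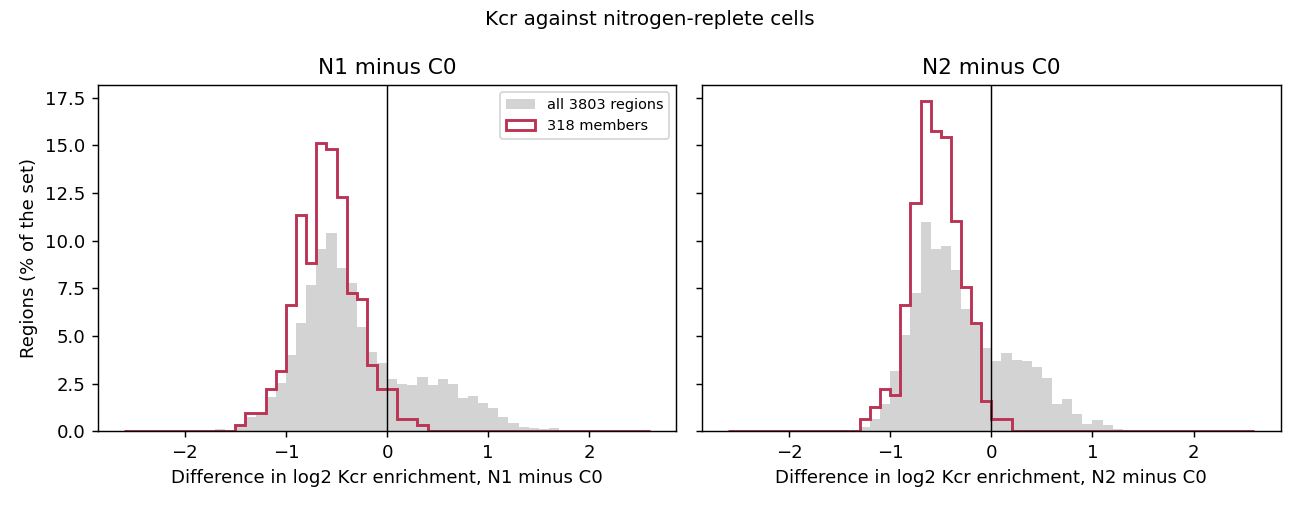
Difference in log2 Kcr enrichment from C0, in N1 (left) and N2 (right), as the percentage of the 318 members (line) and of all 3803 regions (grey) in each bin of the difference. The members lie mostly below 0, with medians of -0.60 and -0.54, whereas the regions as a whole also have a shoulder above 0.

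Kcr stayed low on the second day. The N2 library had a median ratio of 1.97 over the members, and 146 of them reached 2 (45.9%, against 36.8% of all regions). Of the 318 members, 270 were lower in N2 than in C0 and 0 were higher, where 56.1% of all regions were called lower and 7.52% higher, and 0 members were higher at an unadjusted p under 0.05 by limma. The median difference was -0.54, against -0.38 over all regions. In the same H3K27ac range it was -0.45 where H3K36me2 was 1 to under 1.2 and -0.46 where H3K36me2 was under 1. With H3K36me2 of at least 1.2 it was -0.70 where H3K27ac was at least 3.5 and 0.27 where H3K27ac was under 2. Centred libraries gave 13 higher and 57 lower members and a median of -0.08, against 0.08 over all regions. Equal medians and spreads gave 39 and 57 and a median of -0.03, against -0.02. The pileup alone gave 4 and 179 and a median of -0.34, against -0.21. The comparisons of N1 and of N2 share their C0 libraries.

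The largest losses in N2 were again at chromosome 11 (1040463 to 1044563), with a ratio of 1.83 in N2 (log2 difference -1.27 ± 0.12), and at chromosome 25 (496402 to 499059), with 3.78 and 3.91 in C0 and 1.61 in N2 (-1.24 ± 0.14). At chromosome 12 (497197 to 508337) the loss came in steps, from 3.44 and 3.80 in C0 to 2.18 and 2.12 in N1 and 1.59 in N2 (N2 against C0: -1.17 ± 0.12). Chromosome 4 (962492 to 971181) went from 3.19 and 3.34 to 1.59 and 1.67 and then 1.46 (N2 against C0: -1.15 ± 0.12). Both of the latter were among the wide members, at 11141 and 8690 bp.

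Between the first and the second day, Kcr moved at few members. In N2 against N1, 38 members were higher (11.4% of all regions were) and 24 lower (7.47%), with a median difference of 0.05 against 0.01 over all regions. This median turned to -0.08 after centring (-0.13 over all regions) and to -0.03 with equal medians and spreads (-0.14). On the pileup alone it was 0.37 with 205 members higher and 0 lower, against a median of 0.35 over all regions. The largest gain was at chromosome 14 (303996 to 310140), where ratios of 2.31 and 2.60 in C0 fell to 0.857 and 1.203 in N1 and returned to 1.80 in N2 (N2 against N1: 0.82 ± 0.17, limma adjusted p of 0.00134). At chromosome 8 (462416 to 465637) Kcr went from 2.79 and 2.90 to 1.55 and 1.37 and back to 2.56 (0.80 ± 0.13). Both had stood below the members' median N1 ratio before they rose.

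Kcr fell further on the second day at chromosome 20 (236877 to 238741), where it had been kept on the first: 3.12 and 2.57 in C0, 3.06 and 2.96 in N1, and 1.66 in N2 (N2 against N1: -0.84 ± 0.12, limma adjusted p of 2.97e-05). On the pileup alone this difference was 0.04, where the median over all regions was 0.35, and after centring the ratio differed by -0.98. Chromosome 12 (129430 to 131543) went from 1.88 and 1.48 in C0 to 1.77 and 1.56 in N1 and to 1.02, the lowest Kcr ratio of any member in N2 (-0.69 ± 0.17), and this call was lost on the pileup alone (-0.29).

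For acetylation, the choice of members did not use the deprived libraries, and the difference between the deprived days was tested. This difference still varied with the C0 ratio that chose the members. Among interior regions with H3K36me2 of at least 1.2, its median was 0.49 where C0 H3K27ac was under 2 and -0.40 where it was at least 3.5. A comparison of the members with all regions is therefore set in part by the choice. H3K27ac was lower on the second day. The members' median ratio was 2.57 and 2.51 in the N1 libraries and 2.01 and 2.02 in the N2 libraries, against 2.33, 2.26, 1.89 and 1.89 over all regions. The number of members at a ratio of at least 2 fell from 263 in N1 (82.7%, against 57.5% of all regions) to 165 in N2 (51.9%, against 45.8%). In N2 against N1, 206 members were lower (41.7% of all regions were) and 8 higher (19.6%). The median difference was -0.33, with quartiles of -0.51 and -0.15, against -0.14 over all regions. In the same H3K27ac range, 59.0% of regions with H3K36me2 of 1 to under 1.2 were lower, and 54.9% of those with H3K36me2 under 1. Where H3K36me2 was at least 1.2 and H3K27ac at least 3.5, 77.3% were. The second-day loss was thus shared by acetylated regions with less H3K36me2. After centring, which moved the median of all regions to 0.13, the members' median was -0.06 with 34 higher and 78 lower, and with equal medians and spreads the counts were 40 and 62, whereas the pileup alone gave 4 and 242. With equal medians and spreads the members' median was -0.05, against 0.14 over all regions, and on the pileup alone -0.40, against -0.22. The direction of the members' counts was thus the same under each of these scalings, at a smaller size once the library shift was removed.

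The largest loss of acetylation was at chromosome 20 (236877 to 238741), the region described above for Kcr. Libraries of C0 gave H3K27ac ratios of 3.57 and 3.10, those of N1 4.86 and 5.37 and those of N2 2.18 and 2.24 (N2 against N1: -1.19 ± 0.09, limma adjusted p of 2.50e-08), while H3K36me2 stayed between 1.27 and 1.39 in all libraries. In uncentred ratios the mark therefore stood above C0 on the first day and below it on the second, with no overlap between conditions. The same loss on the pileup alone was -0.72.

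At chromosome 1 (206071 to 210823) H3K27ac was held on the first day, at 3.36 and 3.19 after 3.33 and 3.06 in C0, and then fell to 1.37 and 1.58 (N2 against N1: -1.14 ± 0.10). Here the other marks fell on the second day as well, Kcr from 3.04 and 2.74 to 1.89 and H3K36me2 from 1.54 and 1.39 to 1.08 and 1.05. Chromosome 9 (725520 to 729423) and chromosome 18 (320377 to 324079) had H3K27ac losses of -1.06 ± 0.10 and -0.98 ± 0.11. All 4 losses were also called on the pileup alone and after centring.

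Gains of acetylation on the second day were few. At chromosome 30 (223829 to 227616), H3K27ac ratios of 2.49 and 2.35 in C0 dropped to 0.891 and 0.717 in N1, the lowest of any member, and were 1.16 and 1.04 in N2 (N2 against N1: 0.45 ± 0.15, limma adjusted p of 0.0162). This region thus lost its acetylation altogether in N1 and regained little of it, and the call was lost without N1 replicate 2 (0.29) or N2 replicate 1 (0.37). Its H3K36me2 ratio meanwhile remained at 1.21 to 1.34, after 1.51 in C0. Chromosome 4 (1434864 to 1438117), chromosome 5 (841685 to 853000) and chromosome 28 (339873 to 345519) gained 0.36 ± 0.09, 0.35 ± 0.09 and 0.32 ± 0.10, the last of which lost its call without N2 replicate 1 (0.28). On the pileup alone these 3 were 0.12, 0.08 and -0.02, none of them called, where the median over all regions was -0.22, and after centring they were 0.63, 0.63 and 0.60.

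**Figure D3:**
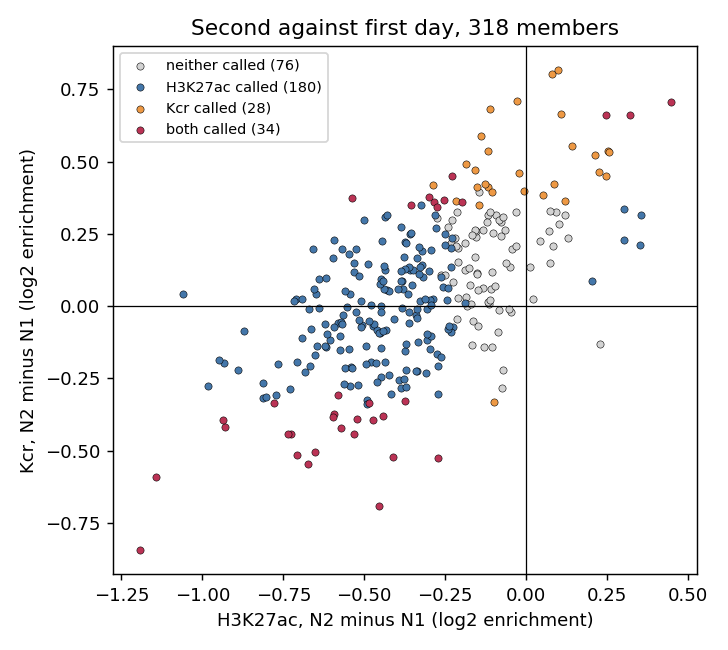
Difference between N2 and N1 in log2 enrichment of H3K27ac (horizontal) and Kcr (vertical) for each of the 318 members, coloured by which mark was called at a limma adjusted p under 0.05. Neither was called at 76 members, H3K27ac alone at 180, Kcr alone at 28 and both at 34. Neither was called at 23.9% of members and 31.3% of all regions. H3K27ac alone was lower at 55.0% (34.3% of all regions) and higher at 1.57% (15.5%). Kcr alone was higher at 8.49% (6.55%) and lower at 0.314% (0.868%). Both were lower at 7.23% (5.81%) and higher at 0.943% (3.34%). H3K27ac was lower with Kcr higher at 2.52% (1.55%).

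Against C0, H3K27ac is described only, since the C0 libraries chose the members. The median difference was -0.14 in N1, against -0.13 over all regions. There 117 members were called lower and 38 higher (37.2% and 14.3% of all regions were). For N2 it was -0.45, against -0.31 over all regions, with 269 members lower and 4 higher (54.2% and 23.6%). Centring moved the members' medians to 0.03 for N1 and -0.002 for N2. Giving the libraries a common median and spread made them 0.04 and 0.02. From the pileup alone they were 0.19 and -0.20, against 0.15 and -0.08 over all regions. The sign of the N1 median thus changed with the scaling. The N2 fall was kept on the pileup alone, but not once the library shift was removed. The highest acetylation after deprivation was at chromosome 19 (287562 to 292658), which went from 3.45 and 3.43 in C0 to 4.67 and 4.63 in N1 and further to 5.52 and 5.19 in N2, the highest of any member. Chromosome 3 (1070769 to 1081394), one of the members richest in H3K36me2 in C0, gained H3K27ac in N1, from 2.19 and 2.21 to 4.55 and 4.31, and stood at 3.27 and 3.28 in N2. Its H3K36me2 ratio was 1.08 and 1.16 in N1 after 1.75 in C0.

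H3K36me2 remained above the limit used in C0 at 179 members in N1 and 194 in N2. In libraries that the choice did not use, the members' median ratio was 1.24 and 1.23 in N1 and 1.23 and 1.24 in N2, against 1.13, 1.13, 1.11 and 1.11 over all regions. The 179 and 194 were 56.3% and 61.0% of the members, against 39.8% and 34.1% of all regions. At 124 members (39.0%, against 21.3%) the mean ratio was at least 1.2 on both days. It was under 1 on both days at 3 members, and at 899 of all 3803 regions. Among the 217 regions with an H3K36me2 ratio of 1 to under 1.2 in C0 and the same H3K27ac range, the shares at or above 1.2 were 27.2% in N1 and 42.4% in N2, and among the 370 with a ratio under 1 they were 3.78% and 9.73%. The order of these sets in C0 was therefore kept on both days, although less sharply in N2. Members were chosen for a high value in C0, and the part of that choice in their lower medians afterwards was not tested. The sets also differed in width, with medians of 6014, 5040 and 1700.5 bp, and the part of width in these shares was not tested. Within the members, the Spearman correlation between width and H3K36me2 ratio was 0.05 for C0, 0.13 for N1 and -0.04 for N2, over 318 regions that share their libraries.

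**Figure D4:**
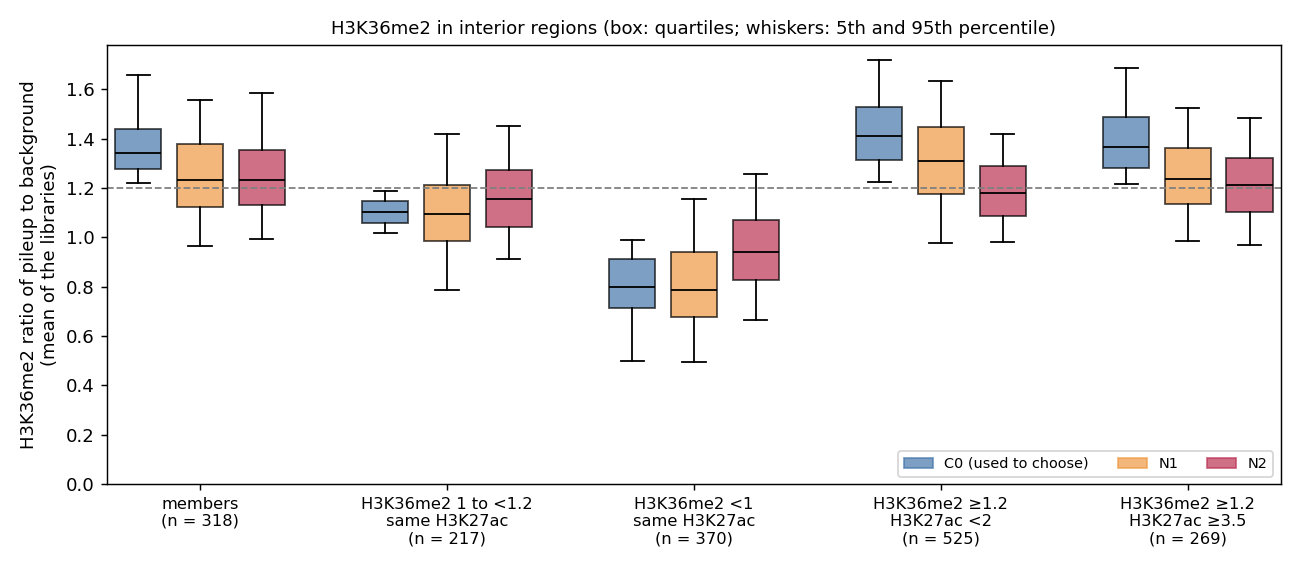
H3K36me2 ratio of pileup to background in C0, N1 and N2 for the members and for 4 other sets of interior regions within the same limits of width, defined by their C0 ratios of H3K36me2 and H3K27ac. In the order drawn, the sets had median widths of 6014, 5040, 1700.5, 2267 and 6904 bp. Boxes give the quartiles, whiskers the 5th and 95th percentiles and the dashed line a ratio of 1.2. The C0 boxes are set by the choice of regions. The members keep a median of 1.23 on both days.

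Sets of regions that differed in acetylation are set side by side as a description. Where H3K27ac was under 2 in C0, 72.2% of the 525 regions with H3K36me2 of at least 1.2 still reached that ratio in N1 but 44.4% did in N2, and where H3K27ac was at least 3.5 the shares were 60.6% and 53.2% of 269. For the members, with H3K27ac in between, the share was 56.3% and then 61.0%. In N2 against N1, H3K36me2 was higher at 60 members (27.1% of all regions were) and lower at 57 (17.2%), and the median difference was -0.02, against 0.05 over all regions. After centring the median was 0.00 with 69 members higher and 47 lower, and with equal medians and spreads it was 0.05 with 79 and 37. The pileup alone, which rose over all regions by a median of 0.25, gave 146 higher and 4 lower members and a median of 0.18. Leaving out N1 replicate 1 or N1 replicate 2 reduced the lower members to 31 or 30. No member changed by a log2 unit.

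The largest gains of H3K36me2 on the second day were at members with low N1 ratios. At chromosome 12 (209388 to 211442) its ratio went from 1.301 in C0 to 0.962 and 0.810 in N1 before reaching 1.33 and 1.55 in N2 (N2 against N1: 0.69 ± 0.10, limma adjusted p of 1.45e-07). At chromosome 15 (567851 to 571852) a C0 ratio of 1.303 was followed by 1.02 and 0.986 in N1 and by 1.71 and 1.54 in N2 (0.68 ± 0.09). The mark was thus at or below background at both regions on the first day, and in each library of the second it was above C0, and at the latter Kcr also went from 1.77 and 1.43 to 2.52. Chromosome 4 (1434864 to 1438117), which regained H3K27ac as well, went from 0.824 and 0.814 in N1 to 1.44 and 1.21 in N2 (0.67 ± 0.10), and chromosome 6 (1120661 to 1124967) from 1.13 and 1.07 to 1.74 and 1.64 (0.61 ± 0.09). All 4 gains were called on the pileup alone, at 0.53 to 0.92.

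The member with the highest H3K36me2 ratio in C0 also had its largest loss between the days. At chromosome 14 (597008 to 602717) H3K36me2 started from 1.80 and went to 1.57 and 1.52 in N1 and then to 0.975 and 1.098 in N2 (N2 against N1: -0.57 ± 0.09, limma adjusted p of 1.29e-06), and H3K27ac fell from 3.39 and 3.07 to 2.45 and 2.00 over the same day. At chromosome 12 (497197 to 508337), which had lost Kcr in steps, H3K36me2 went from 1.45 and 1.67 in N1 to 1.06 and 1.07 in N2 (-0.53 ± 0.09). At chromosome 4 (1445567 to 1449433) it rose from 1.202 in C0 to 1.67 in both N1 libraries and was 1.14 and 1.18 in N2 (-0.51 ± 0.09), and at chromosome 7 (689568 to 699546) it fell from 1.51 and 1.39 to 1.09 and 1.00 (-0.46 ± 0.10). On the pileup alone the losses on chromosomes 12 and 4 were -0.15 and -0.06 and were not called.

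Against C0, which chose the members, H3K36me2 was called lower at 65 members in N1 and 82 in N2 (15.1% and 19.4% of all regions were) and higher at 6 and 9 (7.23% and 16.3%), with C0 in both comparisons. The most marked drop was at chromosome 19 (280780 to 284639), from 1.56 in C0 to 0.856 and 0.832 in N1, with 0.838 and 0.846 in N2. The highest value on the second day was at chromosome 2 (1338721 to 1341205), where 1.45 in C0 was followed by 1.40 and 1.51 and then by 1.99 and 1.96.

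**Figure D5:**
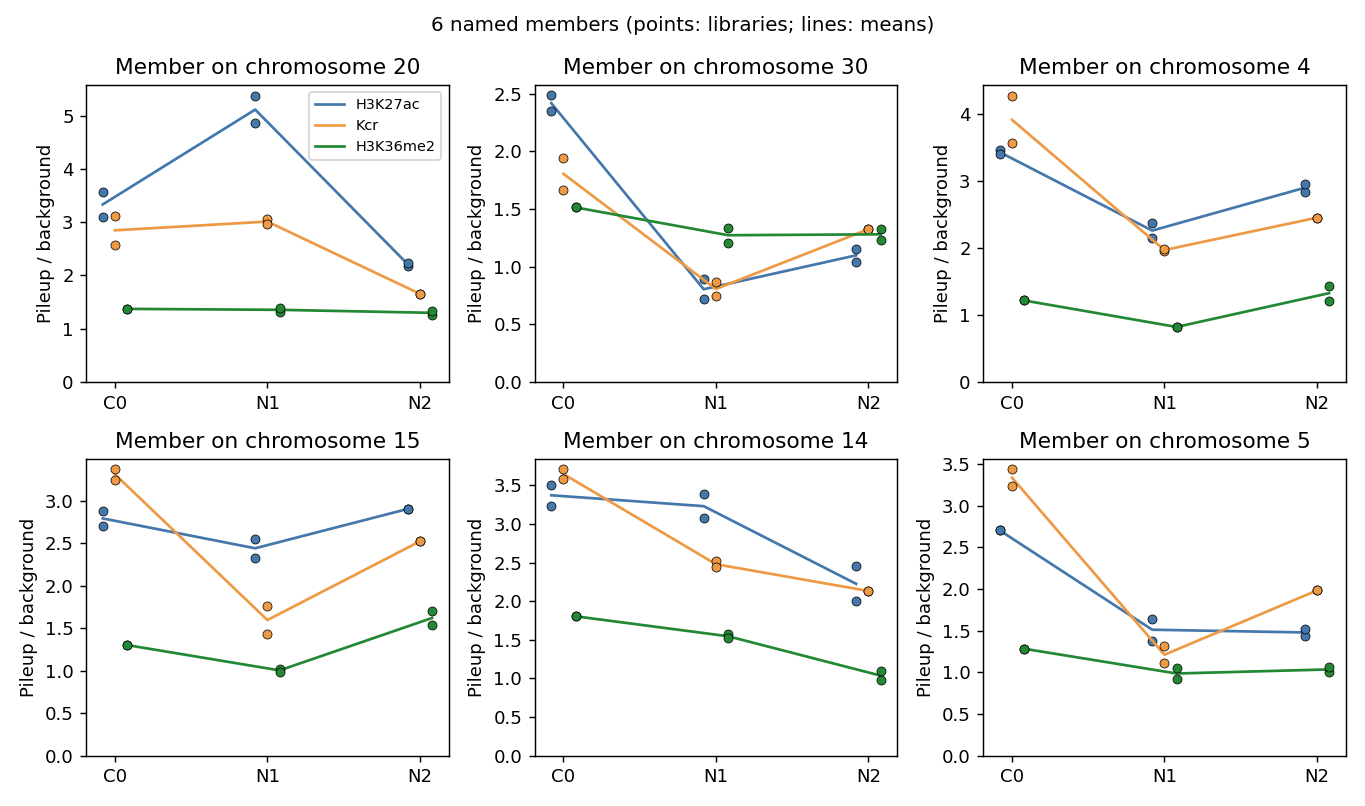
Ratio of pileup to background for H3K27ac, Kcr and H3K36me2 at 6 members in C0, N1 and N2; points are libraries and lines their means, and the vertical scale differs between panels. Acetylation on chromosome 20 rises to 4.86 and 5.37 in N1 and falls to 2.18 and 2.24 in N2, on chromosome 30 it drops below 1 in N1, and the H3K36me2 ratio on chromosome 14 goes from 1.80 to 0.975 and 1.098.

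Ratios of at least 2 for H3K27ac and Kcr together with at least 1.2 for H3K36me2 were found at 306 members in C0, where the choice set both of the other marks, at 90 in N1 (28.3%, against 15.5% of all regions) and 84 in N2 (26.4%, against 15.04%). In N1 against C0, 152 members (47.8%) were called lower for Kcr with no call for H3K27ac, against 25.1% of all regions, and 113 (35.5%) were lower for both, against 34.6%. In N2 against C0, 243 (76.4%) were lower for both, against 47.7%. In N2 against N1, 175 members (55.0%) were lower for H3K27ac with no call for Kcr, against 34.3% of all regions, and 23 (7.23%) were lower for both, against 5.81%. These are counts of uncentred calls, a difference between the marks was not tested, and the H3K27ac calls against C0 are a description.

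Across the 318 members, the differences between N2 and N1 in H3K27ac and Kcr had a Pearson correlation of 0.65, those in H3K27ac and H3K36me2 of 0.39 and those in Kcr and H3K36me2 of 0.38. Over all 3803 regions the same values were 0.08, -0.05 and 0.41. These points share their background: the log2 lambda of any pair of marks in a condition correlated at 0.989 or more over all regions, so that a change in lambda moves all 3 ratios of a region together. On the pileup alone the same correlations were 0.51, 0.15 and 0.12 over the members and 0.01, -0.15 and 0.30 over all regions. Within a condition, the log2 ratios of H3K27ac and Kcr correlated at 0.38 in C0, 0.74 in N1 and 0.60 in N2 over the members, and at 0.95, 0.95 and 0.92 over all regions, which span a wider range. The log2 H3K36me2 ratio in N1 correlated with that in N2 at 0.32 and with that in C0 at 0.25 over the members, and at 0.74 and 0.85 over all regions.

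Width and starting level were also set against the differences. In 3 groups of 106 members by width (1223 to 4510, 4576 to 7650 and 7651 to 11993 bp), the median Kcr difference of N1 against C0 was -0.68, -0.58 and -0.55, and 94, 96 and 96 members were called lower. In the same order of width, H3K36me2 was higher in N2 than in N1 at 28, 11 and 21 members (27.1% of all regions were). It was lower at 12, 19 and 26 (17.2%). In 3 such groups by the C0 ratio of H3K36me2, the median Kcr difference in N1 was -0.60, -0.55 and -0.64, and the median H3K36me2 ratio in the deprived libraries kept the order of the groups, at 1.17, 1.24 and 1.32 in N1 and 1.1998, 1.23 and 1.28 in N2. The 3 consecutive members on chromosome 4 (1400344 to 1425759) did not move as a block: in order along the chromosome, the mean H3K36me2 ratio in N1 was 1.14, 1.45 and 0.874, and that of Kcr was 1.93, 1.47 and 1.55.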

How the data were processed

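ChIP-seq of H3K27ac, H3K36me2 and Kcr in N. oceanica was processed by the authors. The submitters' processing notes name Trim Galore, BWA, Picard, deepTools and MACS2. For their versions, the build behind the ChIP-seq files and the merging of peaks, nothing was given in the sources used here. The authors deposited, per library and region, a coverage signal (pileup) and its local background signal (lambda). Pileups were whole multiples of 1 step per library (tolerance of 0.05 of a step) at 100% of regions. Log2 fold changes, p-values and a score per library were also deposited and were not used, nor were 36 columns of 12 libraries that the labels do not cover.

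Ratios are pileup over lambda, as means of the libraries where no library is given. For tests, limma 3.58.1 (limma-trend, R 4.3.3) was fitted for each mark to log2(pileup + 0.5) minus log2(lambda + 0.5) in all 3 conditions, with 3 residual degrees of freedom for H3K27ac and 2 for the other marks. Where a pair held identical values, its spread came from the remaining groups of that mark. The spread of each region was moderated by a prior from all regions, worth 16.9 degrees of freedom for H3K27ac, 67.6 for H3K36me2 and 27.4 for Kcr. Scripts were tested on simulated data. The members and lists were chosen with earlier results of these data known. Regions named are, for each tested contrast, the called members with the 4 largest gains and losses (2 and 2 for Kcr in N2 against N1), and, as description, the 5 highest H3K36me2 ratios in C0, the 2 regions on each side of each limit, the extremes against C0, and the longest runs; among the extremes those with the clearest course were described. Alternatives were other scalings, the pileup alone, pseudocounts of 0.1 and 2, a filter on low values, leaving out each library, and a replicate block. Same-numbered libraries did not deviate together (correlations of -0.02 to 0.03), so replicate numbers were not taken as pairs. No sequence was read, since no genome was used here.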

Additional observations from a re-analysis of the deposited data

Results flagged for a closer look

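Of the members named, 3 had calls against C0 of opposite sign on the 2 days together with a called difference between N2 and N1. Opposite calls were found at 17 members (5.35%) for H3K27ac, against 2.08% of all regions, and at 1 (0.314%) for H3K36me2, against 0.447%. These signs are those of uncentred ratios. Centring raised H3K27ac in N2 against C0 equally at every region, which moved the median of all regions from -0.31 to 0.13. That shift exceeds the N2 fall at chromosome 10, whose reversal thus rests on the uncentred ratios. It also reduces the N2 fall at chromosome 20, whose call against C0 after centring is not given here. H3K27ac at chromosome 20 (236877 to 238741) was 0.62 above C0 in N1 and -0.58 relative to it in N2, on the log2 scale, a difference between the days of -1.19 ± 0.09 (SE; limma adjusted p of 2.50e-08). H3K27ac at chromosome 10 (286459 to 297936) was 0.74 above C0 in N1, with ratios of 4.47 and 4.63 after 2.66 and 2.80, and -0.20 relative to C0 in N2, with 2.53 and 2.21; the days differed by -0.94 ± 0.09. H3K36me2 at chromosome 15 (567851 to 571852) went the other way, at -0.37 in N1 and 0.31 in N2, and the days differed by 0.68 ± 0.09. The C0 values of both marks chose the members, and only the difference between the days rests on libraries that the choice did not use.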

How the results depend on the processing

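Of 171 alternatives to the 15 list results, 130 left the value within 1.5 times the count or within the spread between libraries, and 41 moved it. Counts under the alternatives are of members, and the shares of all regions called under them are not given here. Centring moved Kcr in N1 against C0 to 66 higher and 70 lower (median -0.0081), Kcr in N2 against C0 to 13 and 57 (-0.084), Kcr in N2 against N1 to 13 and 58, and H3K27ac in N2 against N1 to 34 and 78 (-0.056). Equal medians and spreads gave 57 and 77 (-0.035), 39 and 57 (-0.029), 58 lower for Kcr in N2 against N1, 40 and 62 (-0.047) for H3K27ac, and 37 lower for H3K36me2. The pileup alone gave 4 and 179 (-0.34) for Kcr in N2 against C0, 205 and 0 (0.37) for Kcr in N2 against N1, 4 higher for H3K27ac and 146 and 4 (0.18) for H3K36me2. Restricting the test to regions above the median enrichment gave 1 higher for Kcr in N1, 24 higher for Kcr in N2 against N1 and 5 higher for H3K27ac. Leaving out each library in turn gave 4 to 9 higher members for H3K27ac, 30 to 43 lower and 40 to 49 higher for H3K36me2, 1 to 2 higher and 271 to 278 lower for Kcr in N1, 250 to 270 lower for Kcr in N2, and 30 to 45 higher and 16 to 29 lower for Kcr in N2 against N1. A limit of 1.3 on H3K36me2 gave 205 members.

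Of the 30 results for named members with a test, all kept their direction and call after centring, with equal medians and spreads, with either pseudocount and with the replicate block, while on the pileup alone 2 reversed, H3K27ac at chromosome 28 (339873 to 345519) to -0.017 and Kcr in N2 against N1 at chromosome 20 (236877 to 238741) to 0.035, and 6 lost the call. With the replicate block, the counts were 3 higher and 287 lower for Kcr in N1, 0 and 263 in N2, 38 and 26 in N2 against N1, 8 and 205 for H3K27ac, and 60 and 52 for H3K36me2, all within 1.5 times those without it. Coverage was lowest in H3K27ac of N2, where the median member held 96 steps in replicate 1.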
